A study of Mus musculus with 9 samples.

Results

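The genes described are those whose symbols mark calcium, HCN and TRP channels on the Affymetrix Mouse430_2 array: every probe set with 1 gene symbol that begins with Cacn, with Hcn, Trpc, Trpm or Trpv and a digit, or that is Ryr1 to Ryr3 or Itpr1 to Itpr3. They came to 110 of the 45037 probe sets and to 50 of the 18193 genes with a single symbol. Probe sets had to exceed the 40th percentile of an array on 3 or more of the 9 arrays, which left 76 probe sets and 42 of the 50 genes to test, among 14208 genes tested in all. The 8 genes with no kept probe set were Cacna1s, Cacng3, Cacng8, Itpr3, Trpc5, Trpc6, Trpm8 and Trpv1. Their 9 probe sets read between 15, the lowest value on every array, and 87.1. The symbol rule also takes in Trpc4ap, which encodes a protein that binds TRPC4 and is not itself a channel.

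RNA was measured in punches of 3 regions of the mouse forebrain, with 3 arrays a region: the dorsal striatum (dStr), the nucleus accumbens (NAc) or ventral striatum, and the bed nucleus of the stria terminalis, abbreviated BNST, which belongs to the extended amygdala. The design sets the 3 regions against each other. All animals were anaesthetised with isoflurane before decapitation and had no other treatment in the labels, and 10 ng of total RNA a sample was amplified before hybridisation. The sources used here do not give strain, genotype, sex or age. The labels call the replicates biological but do not say whether a punch came from 1 animal or a pool, so the p-values measure the spread between these samples.

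Voltage-gated calcium channels open on depolarisation and admit the calcium that triggers transmitter release, dendritic spikes and gene transcription. Each has a pore-forming alpha1 subunit, with a cytoplasmic beta and an extracellular alpha2delta subunit that set its number at the membrane and its gating. Most brain gamma subunits act instead as transmembrane AMPA receptor regulatory proteins (TARPs), which traffic AMPA-type glutamate receptors and tune their gating. HCN channels carry a cation current that hyperpolarisation opens, TRP channels are cation channels gated by receptors, lipids, temperature or osmotic stress, and ryanodine and IP3 receptors release calcium from the endoplasmic reticulum. In the striatum, L-type calcium channels and intracellular stores are known for shaping the firing and plasticity of medium spiny neurons, its principal cells.

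Array medians ran from 93.9 to 102 intensity units, and the deposited scaling was kept. Across all tested genes, arrays correlated at 0.909 to 0.981 within regions and 0.843 to 0.965 between them. BNST replicate 1 correlated more with NAc replicate 3 (0.965) than with the other BNST arrays (0.934 and 0.948). Medium spiny neuron markers, 13 of 15 tested, summed to 5562 to 11960 units on the BNST arrays, 21180 to 30310 on the NAc arrays and 36330 to 40510 on the dStr arrays. Extended amygdala markers, 11 of 12 tested, summed to 5913 to 8116 units in BNST, 3059 to 5013 in NAc and 1398 to 1647 in dStr. No list fixed here separates NAc from dStr by its own markers, so the NAc label was not checked in this way.

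BNST and dStr differed most in these genes. In BNST, 13 of the 42 tested channel genes were lower than in dStr and 2 were higher, at an adjusted p under 0.05. The lower genes were 3 pore-forming subunits (Cacna1c, Cacna1e and Cacna1h), the 3 tested beta subunits (Cacnb1, Cacnb2 and Cacnb4), 2 alpha2delta subunits (Cacna2d1 and Cacna2d3), 2 TARPs (Cacng2 and Cacng4), 2 ryanodine receptors (Ryr1 and Ryr3) and Trpc1. Their folds ran from 1.79 to 4.58. The higher genes were the TARP Cacng5, by 6.74-fold, and the receptor-operated channel Trpc4, by 4.94-fold against a dStr signal under the 40th percentile on each array. Folds are of means of log2(intensity + 16), which understates the change of dim genes, and the adjusted p is that of limma with Benjamini-Hochberg adjustment over the 14208 genes.

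The 15 genes called were 35.7% of the 42 tested, where 14.3% of all tested genes were called between BNST and dStr. By direction, 4.94% of all tested genes were higher in BNST and 9.33% lower. The median log2 difference of the 42 was -0.04, beside -0.06 over all genes, so 18 lay above 0 and 24 below. The arrays of BNST and dStr did not overlap for 20 of the 42, beside 36.4% of all genes. Quantile normalisation moved the median of all genes by 0.11 towards BNST and the share of calls higher in BNST from 34.6% to 52.1%, and the sign of none of the 15 called genes changed under it or under centring on array medians.

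**Figure D1:**
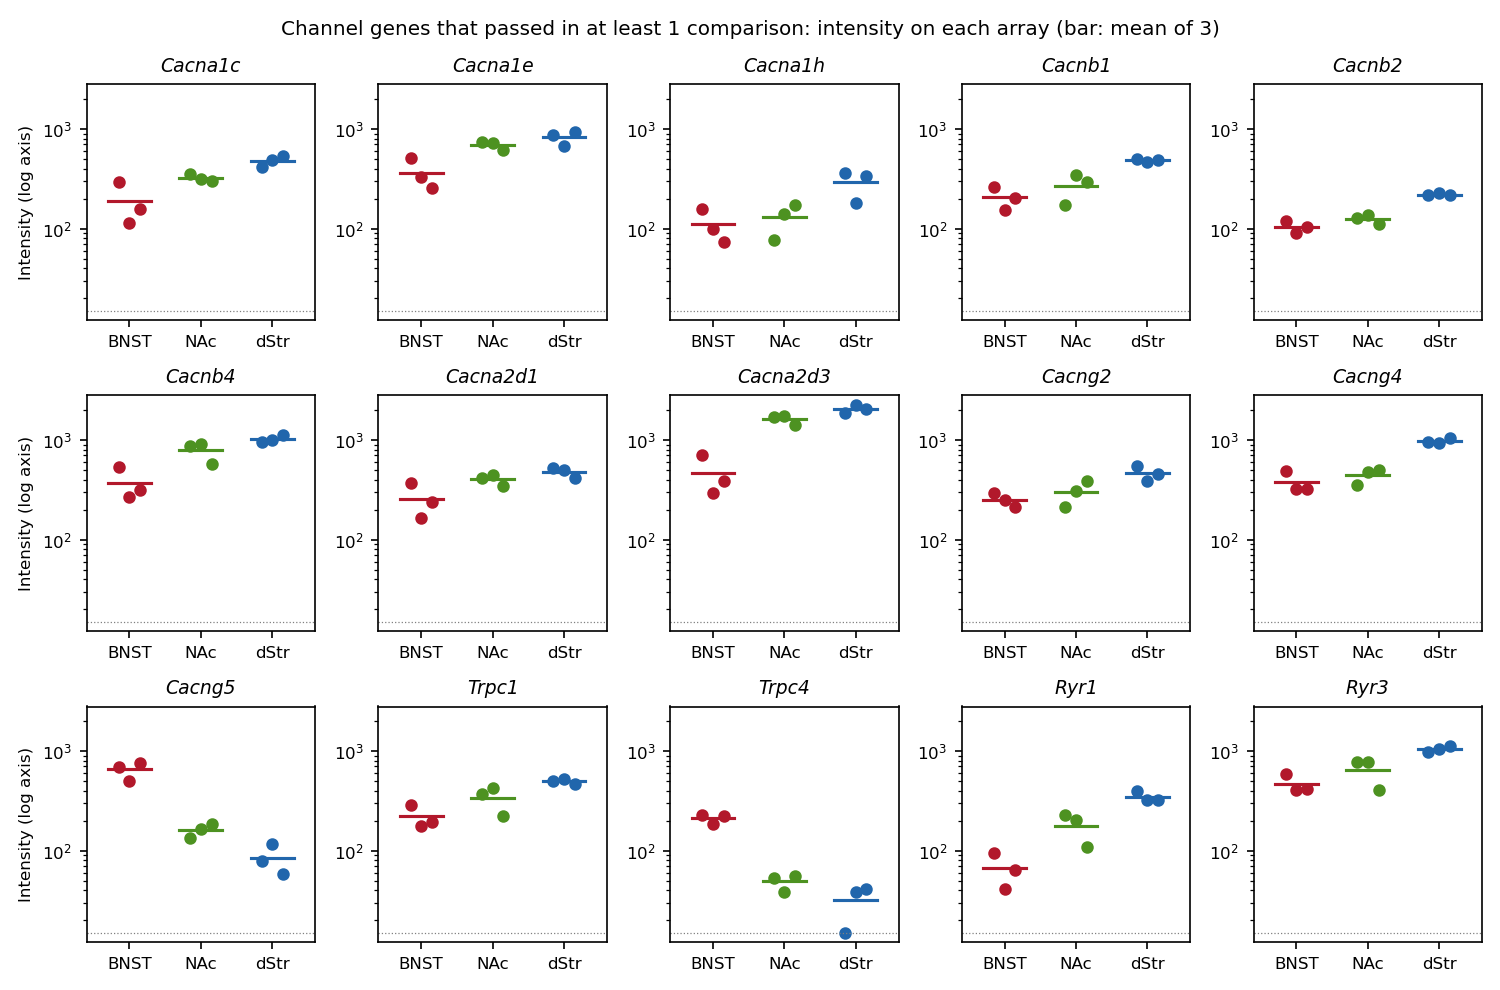
Intensity on each array (vertical axis, log scale) of the 15 channel genes that passed in at least 1 comparison, 1 panel a gene, with the regions BNST, NAc and dStr along the horizontal axis; points are arrays, bars are means of 3 and the dotted line is the lowest value of the arrays. Cacng5 and Trpc4 are highest on the 3 BNST arrays, the other 13 genes have their highest mean in dStr, and the NAc mean lies between the other means for all 15. All 15 passed between BNST and dStr, a choice that favours a NAc mean in between.

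The genes that passed in both comparisons with BNST were Cacng5, Trpc4 and Cacna2d3. The 250 bases before their RefSeq start (the outermost start listed, build GRCm38.p6) are shown because these 3 separate BNST from both striatal regions. Capitals mark matches, on either strand, to 6 promoter motifs whose letters follow with their counts. The windows are chr11:107915056-107915305 on the minus strand for Cacng5, chr3:54155807-54156056 on the plus strand for Trpc4 and chr14:29721865-29722114 on the minus strand for Cacna2d3.
Cacng5: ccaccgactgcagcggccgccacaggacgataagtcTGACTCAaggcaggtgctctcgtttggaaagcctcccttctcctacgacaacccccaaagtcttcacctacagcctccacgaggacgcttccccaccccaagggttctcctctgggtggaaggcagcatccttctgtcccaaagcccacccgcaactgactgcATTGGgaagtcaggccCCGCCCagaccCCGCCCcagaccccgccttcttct
Trpc4: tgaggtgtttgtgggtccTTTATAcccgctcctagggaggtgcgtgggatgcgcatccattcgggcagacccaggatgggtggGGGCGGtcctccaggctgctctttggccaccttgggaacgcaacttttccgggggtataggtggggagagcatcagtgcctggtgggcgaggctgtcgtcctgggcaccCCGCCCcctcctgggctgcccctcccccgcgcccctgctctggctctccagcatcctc
Cacna2d3: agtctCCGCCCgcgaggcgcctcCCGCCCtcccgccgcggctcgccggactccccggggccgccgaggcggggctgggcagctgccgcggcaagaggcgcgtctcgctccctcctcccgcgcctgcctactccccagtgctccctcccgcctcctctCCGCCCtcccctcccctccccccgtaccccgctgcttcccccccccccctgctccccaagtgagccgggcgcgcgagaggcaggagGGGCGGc

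The GC box (GGGCGG) was found in the 3 windows, 2 times each before Cacng5 and Trpc4 and 4 times before Cacna2d3, and 32.7% of the 32851 RefSeq windows of this length hold at least 1. The Cacng5 window also held 1 CCAAT box, by those letters, which 33.8% of windows hold. It further held 1 AP-1 site (TGACTCA), which 4.46% of windows hold. The Trpc4 window held 1 match to the letters TATAAA of the TATA box, which 12.4% of windows hold. The cyclic AMP response element (TGACGTCA), held by 1.55% of windows, was in none of the 3. Nor was the E-box (CACGTG), which 6.02% of windows hold. No motif matched overlapped another of a different kind. The Cacna2d3 window had a GC content of 80% and 30 CpG dinucleotides, more than 94.1% of windows, where the medians over all windows were 52.4% and 6. Windows were listed for 33 of the 42 tested genes, and letters that match a motif describe the sequence only.

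Cacng5, a TARP with weaker effects on AMPA receptor gating than Cacng2, was the channel gene with the largest difference between BNST and dStr. It read 698, 500.5 and 764 on the BNST arrays, 133, 167 and 187 on the NAc arrays and 78.7, 118 and 58.0 on the dStr arrays. No BNST array came near any striatal array, and the NAc arrays all lay above the dStr arrays. The mean of 654 ± 137 (SD, n = 3) in BNST stood beside 162 ± 27.3 in NAc and 84.9 ± 30.4 in dStr (n = 3 each). The log2 difference was 2.75 (SE 0.23, limma adjusted p = 9.13e-05) from dStr and 1.90 (SE 0.23, limma adjusted p = 0.00323) from NAc, a 3.73-fold difference. A further kept probe set of Cacng5 (1426330_at) was flat at 72.8 to 97.1 on the 9 arrays, with a BNST against dStr difference of 0.10 (limma adjusted p = 0.684 over kept probe sets), so the higher level rests on 1434785_at.

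The other TARPs took the opposite direction or did not pass. Cacng4, which like Cacng2 traffics AMPA receptors to synapses, read 489, 325 and 326 in BNST, 358, 479 and 497 in NAc and 957, 938 and 1043 in dStr. The dStr arrays were about level with each other and far above the other 6, whose ranges overlapped. The difference from dStr was -1.35 in BNST (SE 0.19, limma adjusted p = 0.000991) and -1.12 in NAc (SE 0.19, limma adjusted p = 0.0111), folds of 2.56 and 2.18. A further kept probe set of Cacng4 (1455230_at) differed by less. It gave -0.49 in BNST (limma adjusted p = 0.0352 over kept probe sets) and -0.43 in NAc, which did not pass (0.177). Cacng2, stargazin, read 294, 248 and 214 in BNST, 213, 310.1 and 389 in NAc and 545, 391 and 456 in dStr. Its BNST arrays lay below every dStr array and within the NAc range, with a difference from dStr of -0.84 (SE 0.22, 1.79-fold, limma adjusted p = 0.0268). That call was lost without BNST 2 (adjusted p = 0.0822), BNST 3 (0.118), dStr 1 (0.113) or dStr 3 (0.0822). Another probe set of Cacng2 (1420596_at) fell further, by 1.49 in BNST and 1.23 in NAc relative to dStr (limma adjusted p = 0.00303 and 0.0347 over kept probe sets).

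Cacng4 and Cacng5 are neighbours in the RefSeq gene order of chromosome 11, with Cacng1, the skeletal muscle gamma subunit, on the other side of Cacng4. Along that stretch the differences between BNST and dStr were -0.11 for Cacng1, which did not pass, -1.35 for Cacng4 and 2.75 for Cacng5. Cacng6 (-0.10) and Cacng7 (-0.46, 95% interval -1.11 to 0.20) did not pass either. In all, 1 of the 6 tested gamma genes was higher in BNST and 2 were lower.

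Cacna2d3, an alpha2delta subunit, had the largest fold at the pseudocount of 16 among the 13 lower genes. It read 702, 297 and 392 in BNST, 1719.6, 1743 and 1405 in NAc and 1855, 2235 and 2072 in dStr. Both striatal regions were high on every array, and BNST 1 was the highest of the low arrays. The mean was 463 ± 212 (SD, n = 3) in BNST, 1623 ± 189 in NAc and 2054 ± 190.4 in dStr. The difference was -2.20 from dStr (SE 0.26, 4.58-fold, limma adjusted p = 0.000415) and -1.86 from NAc (SE 0.26, 3.62-fold, limma adjusted p = 0.00577). Cacna2d1, the main gabapentin-binding subunit, read 369.7, 164 and 238 in BNST, 414, 447 and 345 in NAc and 526, 501 and 414 in dStr. The BNST arrays lay below the dStr arrays and overlapped those of NAc, and the difference from dStr was -0.92 (SE 0.24, 1.9-fold, limma adjusted p = 0.0298). It was lost without any 1 of BNST 2 (adjusted p = 0.095), BNST 3 (0.102), dStr 1 (0.11), dStr 2 (0.0879) or dStr 3 (0.0563). Cacna2d2 (0.38, 95% interval -0.32 to 1.08) and Cacna2d4 (0.00, -0.48 to 0.48) did not pass, so 2 of the 4 alpha2delta genes were lower in BNST.

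Of the 8 tested pore-forming genes, 3 were lower in BNST than in dStr, from 3 channel classes. Cacna1c, the main L-type pore of neurons, read 296, 114 and 157 in BNST, 357, 315 and 302 in NAc and 413, 493 and 537 in dStr. The 3 regions did not overlap and stepped up from BNST to dStr. The difference from dStr was -1.37 in BNST (SE 0.27, 2.58-fold, limma adjusted p = 0.00715). In NAc it was -0.54 (limma adjusted p = 0.435). Cacna1e, the R-type pore, read 514, 329 and 255 in BNST, 747, 730.3 and 614 in NAc and 879, 681 and 930.3 in dStr. Here NAc and dStr overlapped and BNST lay below both, with a difference from dStr of -1.19 (SE 0.23, 2.28-fold, limma adjusted p = 0.00658) and from NAc of -0.95 (limma adjusted p = 0.0643).

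Cacna1h, a T-type pore that opens near the resting potential, read 158, 99.0 and 74.0 in BNST, 77.4, 141 and 173 in NAc and 365, 179.5 and 340.1 in dStr. The dStr arrays were the highest, with dStr 2 close to the top NAc array, and BNST overlapped NAc. Its difference of -1.30 from dStr (SE 0.34, 2.45-fold, limma adjusted p = 0.0283) was lost without BNST 2 (adjusted p = 0.0901), BNST 3 (0.123), dStr 1 (0.117) or dStr 3 (0.108). A second T-type pore, Cacna1g, went the other way without passing. It read 202, 193 and 209 in BNST, 115, 145 and 124 in NAc and 173, 168 and 118 in dStr, so each BNST array exceeded the 6 others. The difference was 0.38 from dStr (95% interval 0.03 to 0.73, limma adjusted p = 0.143) and 0.60 from NAc (0.25 to 0.95, limma adjusted p = 0.0871). With quantile normalisation it passed in both, at 0.49 (adjusted p = 0.0463) and 0.67 (0.038).

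The presynaptic pores did not pass in any comparison. Cacna1a, the P/Q-type pore, differed by -0.21 between BNST and dStr (95% interval -0.58 to 0.16), and Cacna1b, the N-type pore, by 0.23 (-0.33 to 0.80). The mean of Cacna1b was 1321 ± 439 (SD, n = 3) in BNST, 1252 ± 162 in NAc and 1091 ± 230 in dStr. Cacna1d, the L-type pore that opens at more negative potentials, differed by 0.14 (-0.31 to 0.59), and Cacna1f, the retinal L-type pore, by -0.02 (-0.32 to 0.28). A further probe set of Cacna1a (1450510_a_at) was lower on each BNST array than on any dStr array, by -1.003, but missed the threshold (limma adjusted p = 0.104 over kept probe sets).

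The 3 tested beta subunits were all lower in BNST than in dStr, with a median difference of -1.20. Cacnb4, which partners presynaptic and Purkinje cell channels, read 532, 268 and 317 in BNST, 868, 919 and 579 in NAc and 959, 1003 and 1131 in dStr. BNST lay below NAc and NAc below dStr without overlap, and BNST differed from dStr by -1.49 (SE 0.25, 2.8-fold, limma adjusted p = 0.00312). The 2 other probe sets of Cacnb4 fell by 1.52 and 2.10. Cacnb1 read 259, 155 and 205 in BNST, 173, 346 and 293 in NAc and 503, 467 and 488 in dStr, and BNST differed from dStr by -1.20 (SE 0.24, 2.3-fold, limma adjusted p = 0.0082). The dStr arrays lay above the other 6, which overlapped. A second kept probe set of Cacnb1 (1425777_at) had the opposite sign, 0.36 (limma adjusted p = 0.225 over kept probe sets), and with the mean of the 2 in its place the gene did not pass (-0.42, adjusted p = 0.0843).

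Cacnb2, known for its part in cardiac and neuronal L-type channels, had the tightest arrays of the family. It read 119.6, 90.0 and 105 in BNST, 129, 136 and 112 in NAc and 216, 226 and 216 in dStr. The dStr arrays were nearly equal and well above the rest, while BNST and NAc overlapped. The differences from dStr were -0.97 in BNST (SE 0.13, 1.96-fold, limma adjusted p = 0.0011) and -0.74 in NAc (SE 0.13, 1.66-fold, limma adjusted p = 0.0199).

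**Figure D2:**
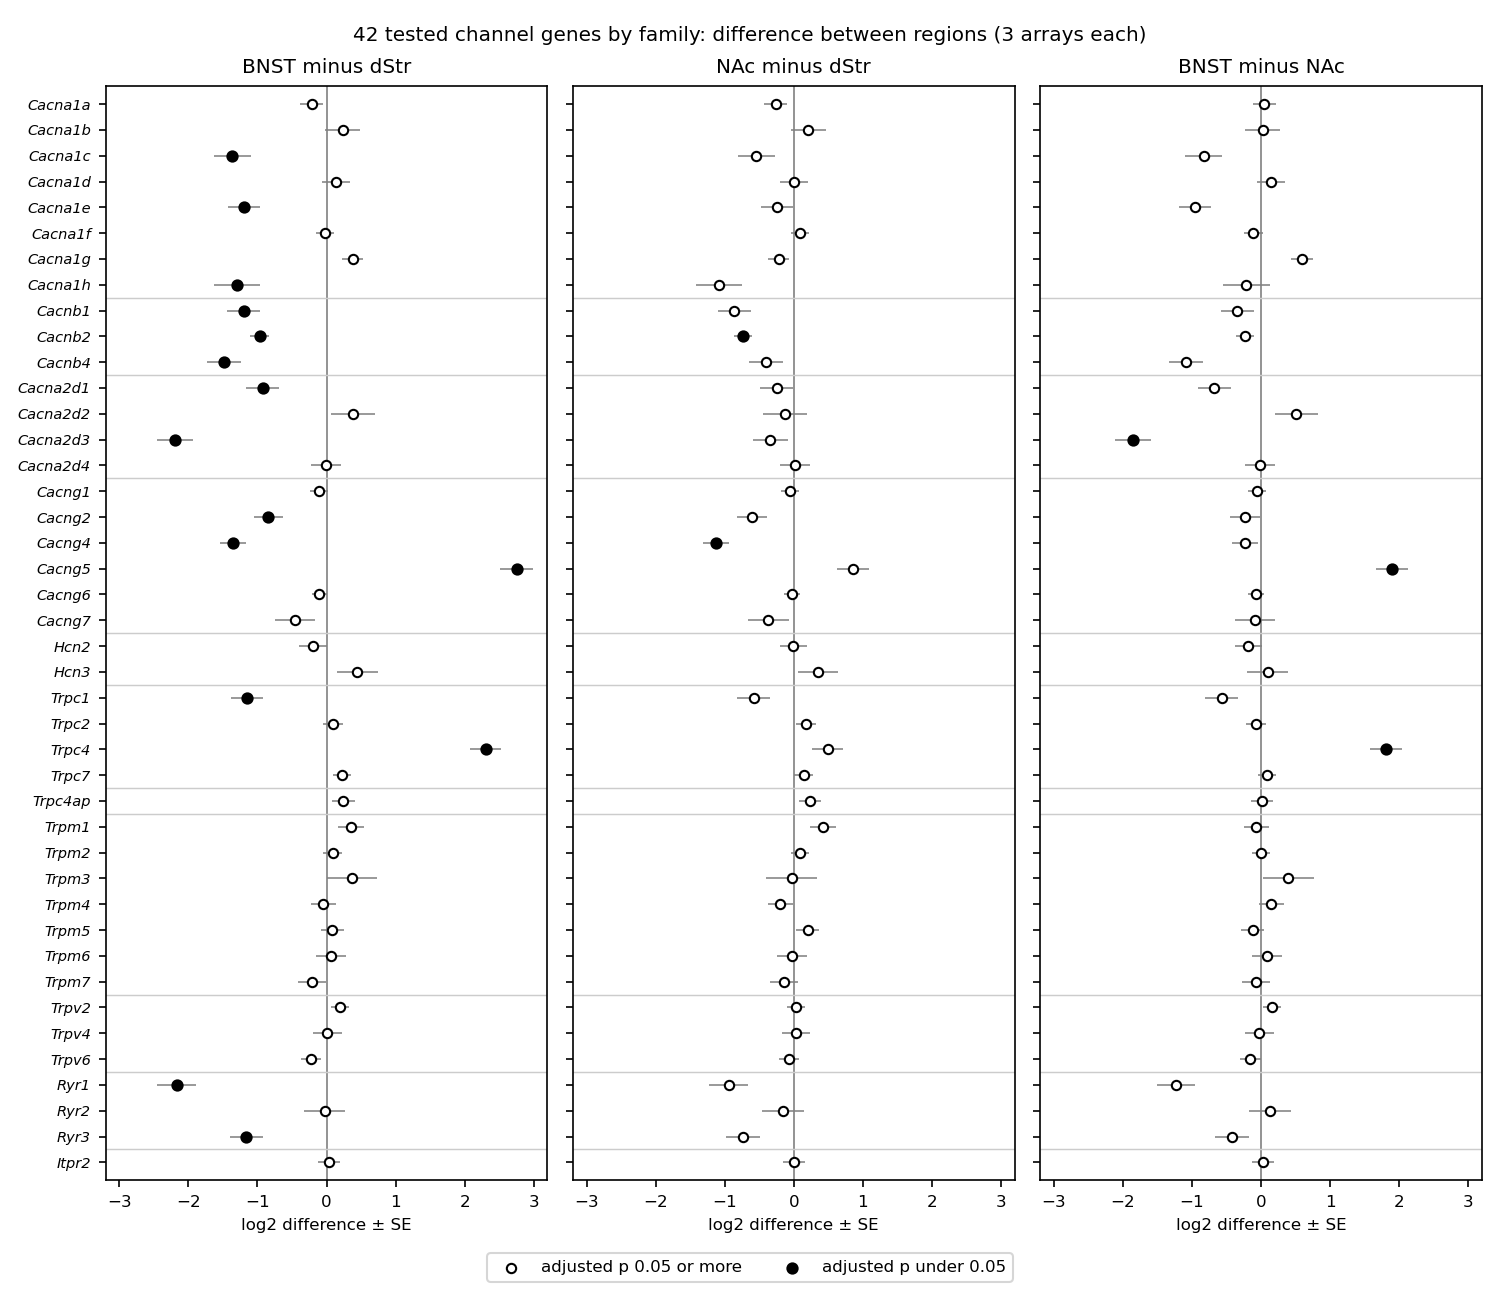
Difference between regions on the log2(intensity + 16) scale (horizontal axis, ± SE) for the 42 tested channel genes by family (vertical axis), in 3 panels for BNST minus dStr, NAc minus dStr and BNST minus NAc; filled points have an adjusted p under 0.05. The left panel holds 15 filled points, 13 of them below 0, the middle panel 2 and the right panel 3.

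Of the ryanodine receptors, Ryr1 and Ryr3 were lower in BNST and Ryr2 did not pass. Ryr1, the skeletal muscle form that is also present in neurons, read 95.4, 41.5 and 63.96 in BNST, 226, 201 and 109 in NAc and 393, 325 and 319.7 in dStr. The 3 regions formed separate steps, and BNST differed from dStr by -2.17 (SE 0.28, 4.51-fold, limma adjusted p = 0.000707). With a pseudocount of 1 its difference, -2.43, was larger than that of Cacna2d3, -2.24. The step from NAc was -1.23 (limma adjusted p = 0.0537). A second probe set of Ryr1 (1457347_at) fell by 1.81 between BNST and dStr (limma adjusted p = 0.000996 over kept probe sets).

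Ryr3, a form found in the striatum and hippocampus, read 589.6, 406 and 412 in BNST, 778, 772 and 407 in NAc and 985, 1049.8 and 1129 in dStr. NAc replicate 3 lay with the BNST arrays and the other 2 NAc arrays above them, while dStr stood apart. Its difference from dStr of -1.16 (SE 0.24, 2.23-fold, limma adjusted p = 0.01) became -1.08 without BNST 3 (adjusted p = 0.0513). Other kept probe sets of Ryr3 differed by less between BNST and dStr. They gave -0.67 for 1432133_at (limma adjusted p = 0.0208 over kept probe sets) and -0.18 for 1452533_at (0.725). Ryr2, the cardiac form and a major one in brain, had means of 299 ± 143 (SD, n = 3), 261 ± 73.4 and 285 ± 28.5 in BNST, NAc and dStr. It differed by -0.03 between BNST and dStr, with a 95% interval of -0.69 to 0.64. Itpr2, an IP3 receptor abundant in astrocytes, had means of 195 ± 33.6, 189 ± 6.90 and 189 ± 29.4 and differed by 0.03 (-0.32 to 0.38).

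Among the 4 tested TRPC genes, 1 was higher and 1 lower in BNST than in dStr. Trpc4 read 230.4, 186 and 221 in BNST, 53.4, 38.6 and 55.6 in NAc and 15, 38.9 and 41.7 in dStr, where dStr 1 was at the lowest value of the array. The BNST arrays lay close together and far above the 6 striatal arrays, which overlapped between NAc and dStr. The gene passed the filter through its 3 BNST arrays alone, 0 of the 6 striatal arrays exceeding the 40th percentile, so it had to differ to be tested and the size of its fold is loose. The mean of 212 ± 23.4 (SD, n = 3) in BNST exceeded that of dStr by 2.30 (SE 0.23, limma adjusted p = 0.000165) and that of NAc by 1.81 (SE 0.23, 3.52-fold, limma adjusted p = 0.00361). From dStr the difference was 2.82 with a pseudocount of 1 and 1.54 with 64. A second Trpc4 probe set (1446366_at) rose by 0.87 between dStr and BNST (limma adjusted p = 0.0345 over kept probe sets), and its 0.86 between NAc and BNST did not pass (0.108). This set read 43.4 to 56.8 in dStr, under the 40th percentile on each dStr array. It too had to differ from dStr to be tested and is no separate support.

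Trpc1, which forms mixed channels with TRPC4, read 288, 177 and 196 in BNST, 369, 426 and 222 in NAc and 499, 525 and 472 in dStr. The dStr arrays were the highest, and NAc replicate 3 fell within the BNST range. The difference of -1.15 between BNST and dStr (SE 0.24, 2.22-fold, limma adjusted p = 0.00915) is that of 1421096_at. The other kept probe set, 1421095_a_at, did not differ in mean (0.01, limma adjusted p = 0.986 over kept probe sets), and the mean of the 2 gave -0.57 (adjusted p = 0.0754). Trpc7 differed by 0.22 (95% interval -0.07 to 0.51) and Trpc2 by 0.10 (-0.23 to 0.42), neither of which passed.

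The remaining TRP and the HCN families had no call in any pair of regions by limma. Of the 7 TRPM genes, 0 had an unadjusted p under 0.05 between BNST and dStr, 1 between NAc and dStr (Trpm1, 0.42) and 0 between BNST and NAc, and for the 3 TRPV and 2 HCN genes the number was 0 throughout. Hcn2, the HCN form gated strongly by cyclic AMP, had means of 402 ± 12.1 (SD, n = 3) in BNST, 473 ± 148 in NAc and 463 ± 55.8 in dStr. Hcn3 had 204 ± 56.9, 187 ± 37.0 and 150.3 ± 65.1. Their differences between BNST and dStr were -0.19 (95% interval -0.63 to 0.24) and 0.45 (-0.20 to 1.10), so the interval of Hcn3 still includes a doubling. Trpm3, a heat-activated channel also found in choroid plexus, read 453, 197 and 139 in BNST against 123.2 to 208 in NAc and 136 to 229 in dStr, the high array being BNST 1. Of 3 kept probe sets of Trpm5, 1 (1418783_at) was lower in BNST than in dStr by 0.38 (limma adjusted p = 0.0482 over kept probe sets), while the set used for the gene differed by 0.09.

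Over all 27 genes called in no pair, differences ran from -0.46 to 0.60 and region means from 65.8 to 1321. Of these, 25 stayed within 0.5 of 0 in each comparison, and for 23 the 95% interval of the difference between BNST and dStr lay within 1 of 0.

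Between NAc and dStr, 2 of the 42 genes passed, both lower in NAc: Cacnb2 and Cacng4, with the values above. That was 4.76% of the 42, where 2.05% of all tested genes were called. No channel gene was higher by limma, and the 10 with an unadjusted p under 0.05 were 8 lower and 2 higher in NAc. Of all 14208 tested genes, 1860 had an unadjusted p under 0.05, 974 lower and 886 higher. The arrays of the regions did not overlap for 12 of the 42, 11 of them lower in NAc, where 19.1% of all genes did not overlap and 10% were lower. Cacng4 lost its call without any 1 dStr array (adjusted p = 0.056, 0.0516 and 0.0708), and Cacnb2 without NAc 3 (0.0696) or any 1 dStr array (0.091, 0.0856 and 0.0901). The comparison shares the dStr arrays with that of BNST, so the calls in the 2 comparisons are not independent. Of the 13 genes lower in BNST than in dStr, 11 were not called between NAc and dStr, and whether the BNST and NAc differences from dStr themselves differ is the comparison of BNST with NAc.

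Between BNST and NAc, 3 of the 42 genes passed: Cacng5 and Trpc4 were higher in BNST and Cacna2d3 was lower. They were 7.14% of the 42, where 2.24% of all tested genes were called, 0.76% higher and 1.48% lower. All 3 kept their calls without any 1 array. For Trpc4 this is no support, since the filter was not reapplied and the gene passed it through its 3 BNST arrays alone. The arrays did not overlap for 9 of the 42, 5 of them lower in BNST, where 14.6% of all genes did not overlap and 8.85% were lower. Cacnb4 (-1.08, limma adjusted p = 0.0548) and Ryr1 fell just outside the threshold. Without BNST 1 the count was 8, with Cacna1c, Cacna1e, Cacna2d1, Cacnb4 and Ryr1 added, all lower in BNST. Without NAc 3 it was 5, Cacnb4 and Ryr1 being added.

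The moderated F test over the 3 regions called 12 of the 42 genes, 28.6%, beside 10.3% of all tested genes. For each of the 15 genes called in any pair the NAc mean lay between those of BNST and dStr. All 15 were called between BNST and dStr, and choosing genes by that gap favours a NAc mean inside it. The share among all genes called in that comparison was not computed. For the 13 lower genes BNST 1 was the highest BNST array every time, BNST 2 the lowest for 10 and BNST 3 for 3.

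**Figure D3:**
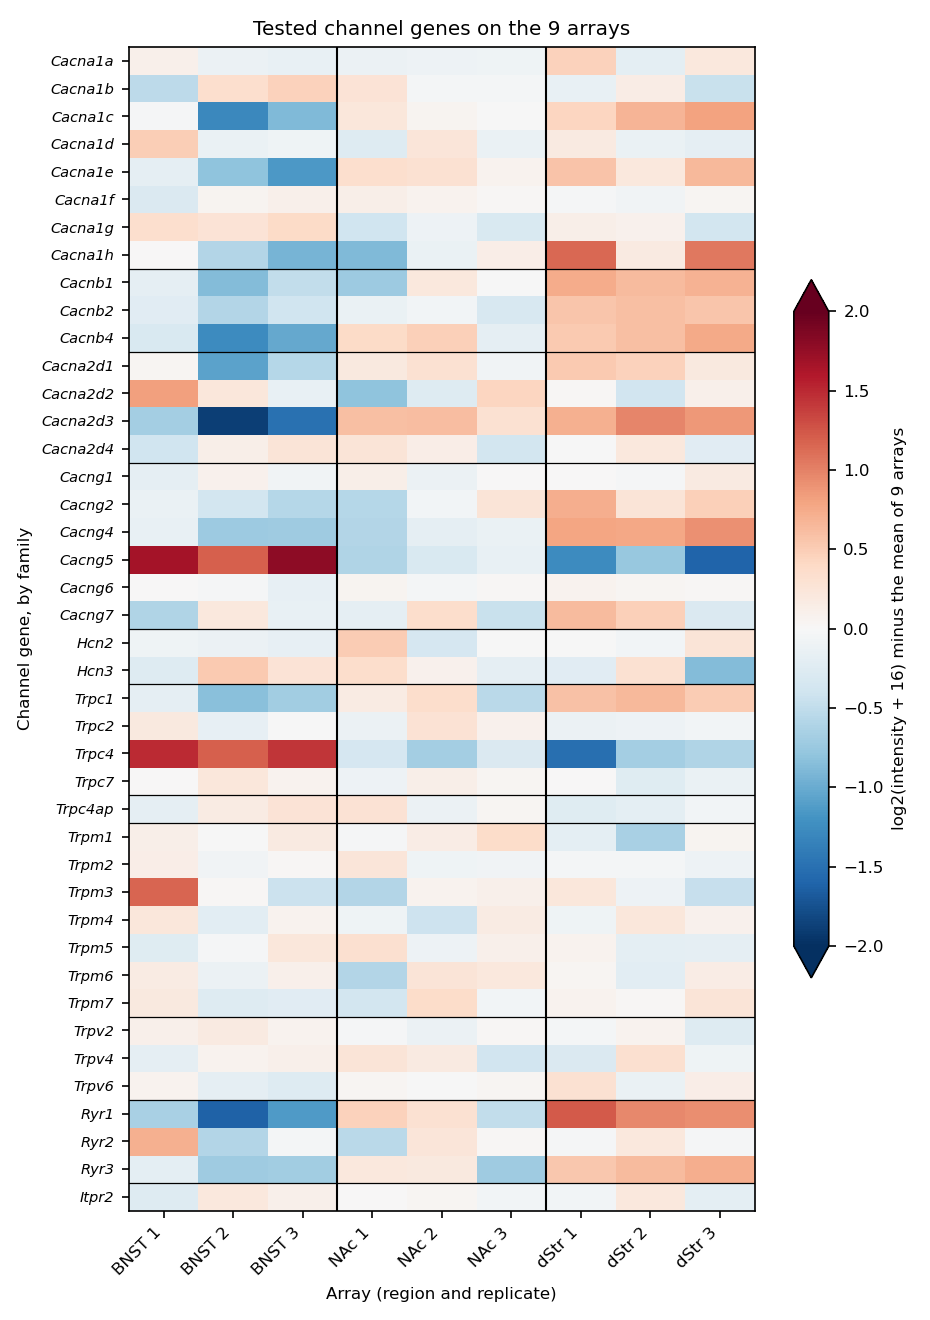
Each tested channel gene (rows, by family) on the 9 arrays (columns, by region) as log2(intensity + 16) minus its mean over the arrays, from low (blue) to high (red). The 13 genes lower in BNST are red in dStr and bluest on BNST 2 or BNST 3, except Cacng2, which is lowest on NAc 1, while Cacng5 and Trpc4 are red on the 3 BNST arrays.

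Cell type markers also differed between the regions. Over all tested genes, 14.3% were called between BNST and dStr, 2.05% between NAc and dStr and 2.24% between BNST and NAc. Medium spiny neuron markers were lower in BNST than in dStr for 13 of 13 tested (median -2.66) and lower than in NAc for 10 of 13, and 3 of 13 were lower in NAc than in dStr. On the BNST arrays their sum was 11960 for BNST 1, 5562 for BNST 2 and 9752 for BNST 3. BNST 1, the highest BNST array for the 13 lower channel genes, was also highest for this list. That order was not particular to it: extended amygdala markers summed to 8116, 5913 and 7233, and microglial and choroid plexus markers had the same order. Astrocyte and ependymal sums were highest on BNST 3. In bulk tissue, fewer cells of a type and less RNA per cell cannot be told apart. Extended amygdala markers were higher in BNST than in dStr for 8 of 11 and in NAc than in dStr for 4, and between BNST and NAc 4 were higher and 1 (Cartpt, -1.96) lower in BNST. Ependymal markers, 7 of 8 tested, were higher in BNST for 6 against either other region and summed to 1522 to 3358 units in BNST, 337.4 to 342.2 in NAc and 333.4 to 389.1 in dStr. Astrocyte markers, at 16860 to 18680 in BNST and 12170 to 12830 in dStr, were higher for 4 of 10 (2 against NAc), and microglial markers, at 3012 to 3850 and 5214 to 5382, were lower for 6 of 9. Choroid plexus markers, 4 of 8 tested, summed to 913.9 to 1386 in BNST and 680.1 to 783.9 in dStr, with 1 called (Otx2, higher in BNST than in dStr or NAc). Thalamic and hypothalamic markers were higher in BNST than in dStr, and than in NAc, for 2 of 5. Endothelial and mural markers were lower in BNST than in dStr for 1 of 8, or 12.5%, under the 14.3% of all tested genes. Of the cholinergic (3 tested), cortical (4), oligodendrocyte (9) and precursor (5) markers limma called 0 in any comparison, with an unadjusted p under 0.05 for 2 precursor markers between BNST and dStr, 1 between BNST and NAc and 0 of the rest. The part of any of these cell types in the channel results was not tested.

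**Figure D4:**
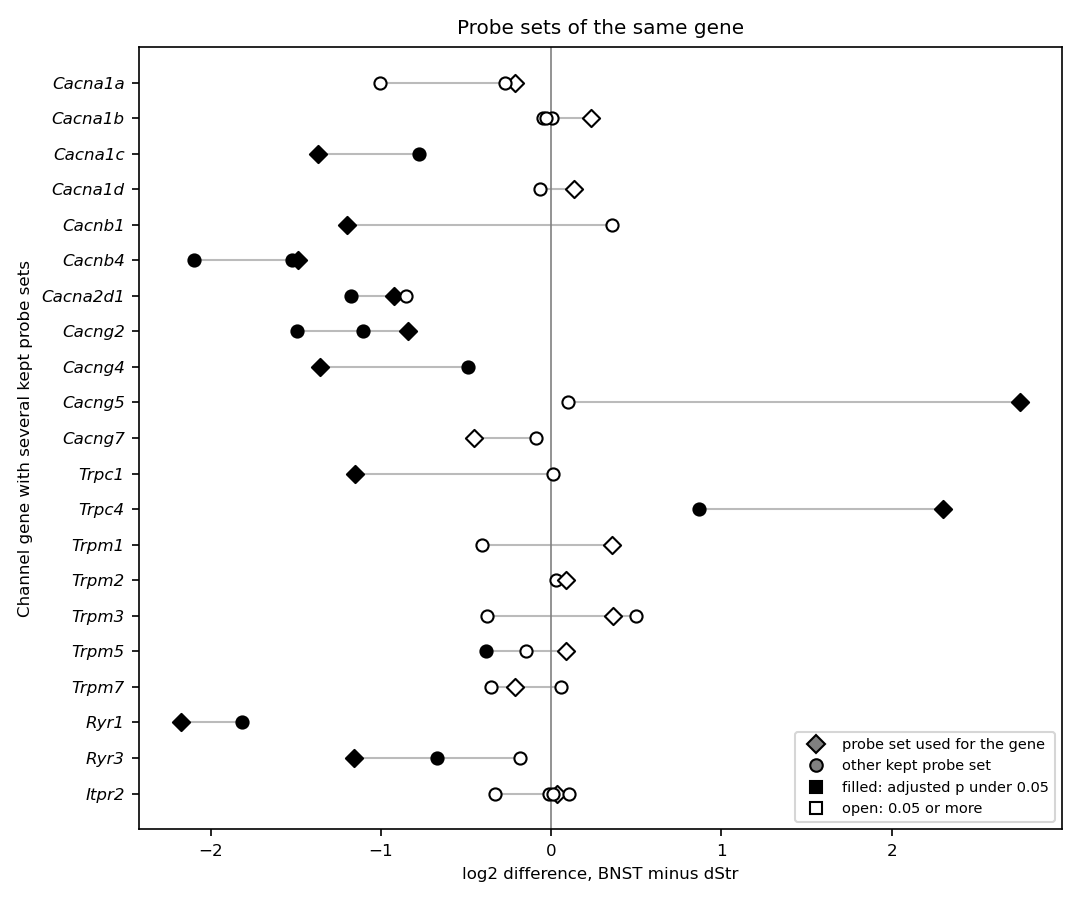
Difference between BNST and dStr (horizontal axis, log2 scale) for each kept probe set of the 21 channel genes with several (vertical axis); diamonds are the set used for the gene, circles the others, and filled symbols have an adjusted p under 0.05. The sets of Cacnb4, Cacng2 and Ryr1 lie together on the low side, while those of Cacnb1, Cacng5 and Trpc1 lie apart.

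Of the 15 called genes, 11 had several kept probe sets, and for 2 (Cacnb1 and Trpc1) a set took the opposite sign. Tested as probe sets, 26 of the 76 passed between BNST and dStr, 23 lower and 3 higher, in 16 genes, where 13.6% of all kept probe sets passed. Between NAc and dStr 3 passed (1.68% of all) and between BNST and NAc also 3 (1.81%). Which transcript forms the disagreeing sets read was not analysed here.

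Calcium handling around the channels was read from 85 partner genes in 4 lists, 72 of them tested. The lists were chosen with earlier results of these data known. Their shares therefore describe the lists and are no independent test of them. Between BNST and dStr, 21 were lower and 8 higher, together 40.3%, where 14.3% of all tested genes were called. The calmodulin, calmodulin kinase and calcineurin list had 8 lower and 1 higher of 14, pumps, exchangers and store-operated entry 6 and 2 of 24, channel partners 5 and 3 of 22, and phospholipase C and Gq 2 and 2 of 12. The median of the 72 was -0.08, beside -0.06 over all genes. Homer1, a scaffold that links metabotropic glutamate receptors to IP3 receptors and TRPC channels, read 545, 231 and 275 in BNST, 964, 886 and 692 in NAc and 1592, 1739 and 1667 in dStr. Its regions did not overlap, and it differed by -2.29 between BNST and dStr (SE 0.27, limma adjusted p = 0.000377). Homer2, a related scaffold, went the other way: 530.4, 456 and 600.1 in BNST, 170.5, 209 and 170.5 in NAc and 155, 163 and 178 in dStr. The 3 BNST arrays lay far above the other 6, with differences of 1.58 from dStr (SE 0.14, limma adjusted p = 0.000124) and 1.45 from NAc (limma adjusted p = 0.00111).

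Camk4, a nuclear calmodulin-dependent kinase, was lower in BNST than in dStr by -2.22 (limma adjusted p = 0.00115), and Atp2b1, a plasma membrane calcium pump, by -2.20 (0.00195). Slc8a1, the sodium-calcium exchanger, was the reverse. It read 443, 396 and 310.4 in BNST, 177, 397 and 259 in NAc and 39.7, 58.1 and 45.5 in dStr, so BNST and NAc lay far above dStr and overlapped each other. Its differences from dStr were 2.64 in BNST (SE 0.25, limma adjusted p = 0.000152) and 2.14 in NAc (limma adjusted p = 0.00224). The gene exceeded the 40th percentile on 0 dStr arrays and passed the filter through BNST and NAc. It had to differ from dStr to be tested, and the size of these differences is loose. Camk1, a cytosolic kinase of the same pathway, was higher than in dStr by 1.40 in BNST (0.000913) and by 1.04 in NAc (0.0184).

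Between NAc and dStr, 4 partners passed, 5.56% beside 2.05% of all tested genes. Besides Slc8a1 and Camk1 these were Ncs1, a calcium sensor of the recoverin family (1.06, limma adjusted p = 0.0199), and Cabp1, a calmodulin-like regulator of calcium channels and IP3 receptors (-0.89, 0.00899). Cabp1 exceeded the filter on the dStr arrays alone, with 41.8 to 51.1 in NAc and 90.6 to 109.8 in dStr. Like Slc8a1 it had to differ to be tested, so the size of its difference is loose. The share of 5.56% includes both genes. Ncs1 lost its call without any 1 dStr array (adjusted p up to 0.0947), Camk1 without any 1 dStr array, NAc 2 or NAc 3 (up to 0.0968), and Cabp1 without dStr 1 (0.0558). The filter was not reapplied there, so the calls that Cabp1 and Slc8a1 kept are no support. Averaging each gene's probe sets also ended the calls of Ncs1 (0.32, adjusted p = 0.184) and Camk1 (0.73, 0.183), and Camk1 did not pass with a replicate block (0.053). Between BNST and NAc 6 passed, 8.33% beside 2.24% of all tested genes, with Homer1 (-1.32), Camk4 (-1.53) and the kinase-like Camkv (-0.999) lower and Homer2 and the phospholipase C gene Plch1 (0.66) higher among them. Of these 5, Homer2 kept its call without any 1 array. Camkv lost it without BNST 2, BNST 3 or NAc 2 (adjusted p = 0.09, 0.107 and 0.0702). Homer1, Camk4 and Plch1 lost theirs without any 1 of BNST 2, BNST 3, NAc 1, NAc 2 or the dStr arrays, with adjusted p up to 0.157, 0.128 and 0.202. Without the filter (0.0716, 0.0767 and 0.0541) or with only the arrays of the 2 regions (0.136, 0.135 and 0.129) these 3 did not pass either, nor did Camkv with only those arrays (0.0902). With a replicate block Camk4 (0.0617) and Plch1 (0.0717) did not pass, and Plch1 also missed with a pseudocount of 64 (0.0555).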

How the data were processed

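The authors deposited linear probe-set intensities of 9 Affymetrix Mouse430_2 arrays, with a common lowest value of 15. How they were summarised and scaled is not given in the sources. Per the labels, RNA of punches from 300 µm slices was extracted with Stat-60 and labelled with biotin.

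Intensities were taken as log2(value + 16), and the brightest kept probe set, by mean over arrays, stood for its gene. Symbols came from the platform annotation, and 50 of 50 channel genes matched a RefSeq Entrez identifier with 0 symbols changed. Regions were compared with limma 3.58.1 in R 4.3.3, in 1 model over 9 arrays (6 residual degrees of freedom), 2-sided, with Benjamini-Hochberg adjustment over 14208 genes and a threshold of 0.05. Intervals are 95%. The procedure was tested on simulated data. The members and lists were chosen with earlier results of these data known. Every gene called in a pair is given by array; of partners, up to 3 per comparison and direction with the largest difference. Levels of different probe sets entered the choice of the brightest set and the marker sums, in which bright markers weigh most. They were not otherwise compared. With 9 arrays, their number limits the precision.

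Alternatives were quantile normalisation, centring on array medians, the 60th percentile or no limit as the filter, averaging the probe sets of each gene, testing every kept probe set, pseudocounts of 1 and 64, a trend and robust prior, a replicate block, the arrays of the pair alone and leaving out each array. Leaving out BNST 1 and NAc 1 together was added after seeing the data.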

Additional observations from a re-analysis of the deposited data

How the results depend on the processing

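Between BNST and dStr the count of 15 stayed within 1.5 times under each of 21 alternatives (11 to 15 without any 1 array). Under those that give a value for each gene, Cacna1c, Cacna1e, Cacna2d3, Cacnb2, Cacnb4, Cacng4, Cacng5, Ryr1 and Trpc4 kept their calls. When an array was left out, the filter was kept from all 9 arrays. Trpc4 passed it through its 3 BNST arrays alone, so its call without an array is no support. No called gene changed sign. Without the filter, Cacna1h (adjusted p = 0.0531) and Cacna2d1 (0.0503) did not pass. The count of 2 between NAc and dStr ranged from 0 to 2 without 1 array, being 0 without dStr 1, dStr 2 or dStr 3 (unadjusted p under 0.05 for 7, 11 and 12 genes by limma). It was 5 without BNST 1 and NAc 1 together, an alternative chosen after seeing the data. The count of 3 between BNST and NAc was 6 with quantile normalisation, 5 with median centring, 3 to 8 without 1 array and 10 without BNST 1 and NAc 1. The F test's 12 ranged from 6 to 14 without 1 array, with 7, 6, 7 and 7 without BNST 2, BNST 3, dStr 1 and dStr 3. Quantile normalisation moved the share of all calls higher in BNST than in NAc from 34% to 46%. With a replicate block the counts were 13, 1, 3 and 10, and Cacna1h (adjusted p = 0.0642) and Cacng2 (0.0687) between BNST and dStr and Cacnb2 between NAc and dStr (0.0687) did not pass. The arrays share only a number: deviations of same-numbered arrays correlated at -0.514 to 0.261, over 0.1 in 2 of 9 pairs, and the best match of an array in another region had its number in 3 of 18 cases. Signals close to the lowest value, such as Trpc4 in dStr, limit the folds of dim genes.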
